A study of Mus musculus with 30 samples.

Results

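The 9 genes described here encode DNA damage checkpoint kinases and proteins of recombination repair: Atm, Atr, Chek1, Chek2, Wee1, Brca1, Brca2, Fancd2 and Fanca. They were chosen by symbol as known members of the pathway by a rule that uses no measured value, although earlier results of these data were known, and are 9 of the 21841 genes in the count table. All 9 passed the filter on low counts, which kept 13663 genes. Bulk RNA-seq was performed on mammary tumors of MMTV-PyMT mice of the FVB/N-Tg(MMTV-PyVT)634Mul/J line, labelled WT, in which the polyoma middle T oncogene is driven by the mouse mammary tumor virus promoter and breast tumors arise spontaneously. Each of the 6 groups held 5 tumors, and all were labelled as treated for 72 hours. The treatments were vehicle, 5-fluorouracil (5-FU, 40 mg/kg every 4 days), gemcitabine (64 mg/kg every 7 days), the heme oxygenase-1 inhibitor KCL-HO-1i (25 µmol/kg daily), KCL-HO-1i with 5-FU, and KCL-HO-1i with gemcitabine. Because the methods of the study describe less gemcitabine over less time, time and doses are given here as labelled. The compounds were given by intraperitoneal injection, and all 6 groups were of this line.

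DNA double-strand breaks activate the kinase ATM, and single-stranded DNA at stalled replication forks activates ATR. ATM signals mainly to CHK2 (Chek2) and ATR to CHK1 (Chek1), and WEE1 holds the cell cycle by phosphorylating the cyclin-dependent kinases. BRCA1 and BRCA2 act in homologous recombination, while FANCA belongs to the Fanconi anemia core complex that ubiquitinates FANCD2 at DNA crosslinks. Both 5-FU and gemcitabine are antimetabolites that disturb DNA synthesis and activate these pathways. Most of the 9 proteins are regulated by phosphorylation or ubiquitination, which mRNA levels do not show, and several of the genes are transcribed mainly in cycling cells.

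Total counts per tumor ran from 10067577 to 13622264 (median 12096714), so a count of 3 reads, the smallest level treated as detected, corresponded to 0.215 to 0.302 CPM (read counts scaled to the effective library size of each tumor). Every one of the 9 genes was far above that in each tumor, the lowest count being 32 reads of Fancd2. As markers of the labelled tissue, all 10 mammary epithelial genes of a fixed list (Epcam, Krt8, Krt18 and others) were detected, with a summed level of 2845 to 6313 CPM over the 30 tumors. The study describes cohorts of 5 mice and tumors, with mice collected on different days, so p-values measure the spread between tumors of a group.

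At the gene level, and with the table giving symbols only, positions were read from the GENCODE annotation of mm10, the build named in the submitters' processing notes. Atm (chr9:53439149-53536740, minus strand), Chek1 (chr9:36708482-36727065, minus) and Atr (chr9:95857597-95951781, plus) lie on chromosome 9. Chek2 (chr5:110839979-110874145, plus) and Brca2 (chr5:150522630-150570329, plus) lie on chromosome 5. Wee1 is at chr7:110122046-110143286 (plus), Fancd2 at chr6:113531682-113597017 (plus), Fanca at chr8:123268300-123318576 (minus) and Brca1 at chr11:101488764-101551955 (minus). Exons of Fanca share 920 bases with Zfp276, a gene on the opposite strand read at 33.5 CPM on average, and exons of Fancd2 share 257 bases with Fancd2os (0.0189 CPM). The library kit was directional, but the strand setting of the quantification is not given in the sources used here, so Fanca counts could hold reads of Zfp276. Across the 30 tumors the log2 CPM of the 2 genes had a Pearson r of -0.11, and Zfp276 had a log2 difference of 0.00 (SE 0.10) with KCL-HO-1i against 0.52 lower (SE 0.19) for Fanca. These values do not show how many of the Fanca reads come from Zfp276, which was not tested.

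Of the 9 genes, 7 had a RefSeq promoter on GRCm38.p6, from 250 bases before to 50 bases after the transcription start, and none was found for Wee1 and Fancd2. Sequences are shown for Chek1, with the largest average difference with KCL-HO-1i, for Chek2, with the smallest, and for Brca1 and Fanca, the repair genes with the largest. They cover chr9:36726609-36726908 (Chek1, minus strand), chr5:110839733-110840032 (Chek2, plus), chr11:101551906-101552205 (Brca1, minus) and chr8:123318527-123318826 (Fanca, minus). Capitals mark matches on either strand to CCAAT (bound by NF-Y, so ATTGG on the other strand) and to the E2F words TTTCGCGC, TTTGGCGC, TTTCCCGC and TTTGCCGC, and none of the matches overlap.
Chek1: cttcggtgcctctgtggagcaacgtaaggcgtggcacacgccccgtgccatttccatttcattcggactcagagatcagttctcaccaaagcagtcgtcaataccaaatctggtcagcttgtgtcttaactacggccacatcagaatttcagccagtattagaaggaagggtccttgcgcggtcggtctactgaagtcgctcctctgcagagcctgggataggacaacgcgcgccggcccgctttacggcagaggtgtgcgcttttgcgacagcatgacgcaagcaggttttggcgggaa
Chek2: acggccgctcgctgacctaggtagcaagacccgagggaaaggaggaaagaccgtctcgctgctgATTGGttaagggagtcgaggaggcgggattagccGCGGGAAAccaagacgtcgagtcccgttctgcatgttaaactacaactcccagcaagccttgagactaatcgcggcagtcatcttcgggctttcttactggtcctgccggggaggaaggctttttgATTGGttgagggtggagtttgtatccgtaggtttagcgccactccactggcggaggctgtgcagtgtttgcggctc
Brca1: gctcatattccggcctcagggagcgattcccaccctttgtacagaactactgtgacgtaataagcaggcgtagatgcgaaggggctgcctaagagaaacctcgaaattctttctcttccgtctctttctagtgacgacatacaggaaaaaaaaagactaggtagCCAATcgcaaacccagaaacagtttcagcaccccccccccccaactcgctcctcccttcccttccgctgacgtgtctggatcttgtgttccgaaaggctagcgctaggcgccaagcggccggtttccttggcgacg
Fanca: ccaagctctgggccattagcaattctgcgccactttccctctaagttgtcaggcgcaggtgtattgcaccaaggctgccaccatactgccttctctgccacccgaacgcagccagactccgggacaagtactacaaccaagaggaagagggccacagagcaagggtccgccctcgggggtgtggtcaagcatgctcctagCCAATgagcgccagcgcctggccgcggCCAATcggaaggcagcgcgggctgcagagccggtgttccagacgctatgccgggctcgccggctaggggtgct
CCAAT was found in 4 of the 7 promoters (Atm 1, Chek2 2, Brca1 1 and Fanca 2 matches) and in 37.4% of the 32851 RefSeq promoters of this length. An E2F word was found in Chek2 and Brca2, 2 of 7, against 2.26% of all promoters. The cell cycle homology words TTTGAA and TTCGAA were found in Atr alone, 1 of 7, against 19.2%. No exact match was found for Chek1, but its window ends in gcgggaa, the start of GCGGGAAA (TTTCCCGC on the other strand). An E2F word cut by the window edge would be missed. That window also lies inside the annotated gene, which runs to 36727065 on the minus strand. Chek2, with a pair of CCAAT matches and an E2F word, was the gene whose level differed least with KCL-HO-1i. Whether these words bear on the differences was not tested.

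Per kilobase of the longest annotated coding transcript, Wee1 was the highest of the 9 genes in vehicle-treated tumors at 17.4 CPM per kb, followed by Chek2 at 9.74. Fanca (4.72), Atm (3.88), Brca1 (2.91), Chek1 (2.86) and Atr (2.66 CPM per kb) formed a middle range. Fancd2 (1.43) and Brca2 (0.901 CPM per kb) were lowest. Thus the inhibitory kinase and the effector kinase CHK2 had more mRNA per length than the apical kinases, and BRCA2 the least.

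A pair of tumors stood apart for the whole set. KCL-HO-1i/5-FU replicate 4 had the highest level of its group in 9 of 9 genes, and 5-FU replicate 5 the lowest of its group in 9 of 9. A proliferation score, the mean log2 CPM of 18 mitotic genes such as Mki67 and Top2a, was 5.81 in the first, against 3.54 to 5.04 in the other 4 tumors of its group. In the second it was 3.96, against 5.69 to 5.97, so each score lay in the range of the other 4 tumors of the opposite group. A score of 20 p53 targets was 5.43 in 5-FU replicate 5, against 4.73 to 5.08 in the rest of its group and 5.18 to 5.45 in the other KCL-HO-1i/5-FU tumors, while that of KCL-HO-1i/5-FU replicate 4 (5.30) lay within its own group. The labels of the 2 tumors carry the same code, and whether they were exchanged was not tested. The labels are used as given, and the comparisons that change without either tumor are also given without it.

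The group means of 8 genes were lowest in KCL-HO-1i/5-FU and that of Atm in KCL-HO-1i/gemcitabine. Adjacent groups in the order of means were close. Of 45 such steps over the 9 genes, 1 was wider than the larger SD of the groups it separated, the step for Chek1 from KCL-HO-1i (9.03 CPM) to KCL-HO-1i/gemcitabine (6.22 CPM).

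**Figure D1:**
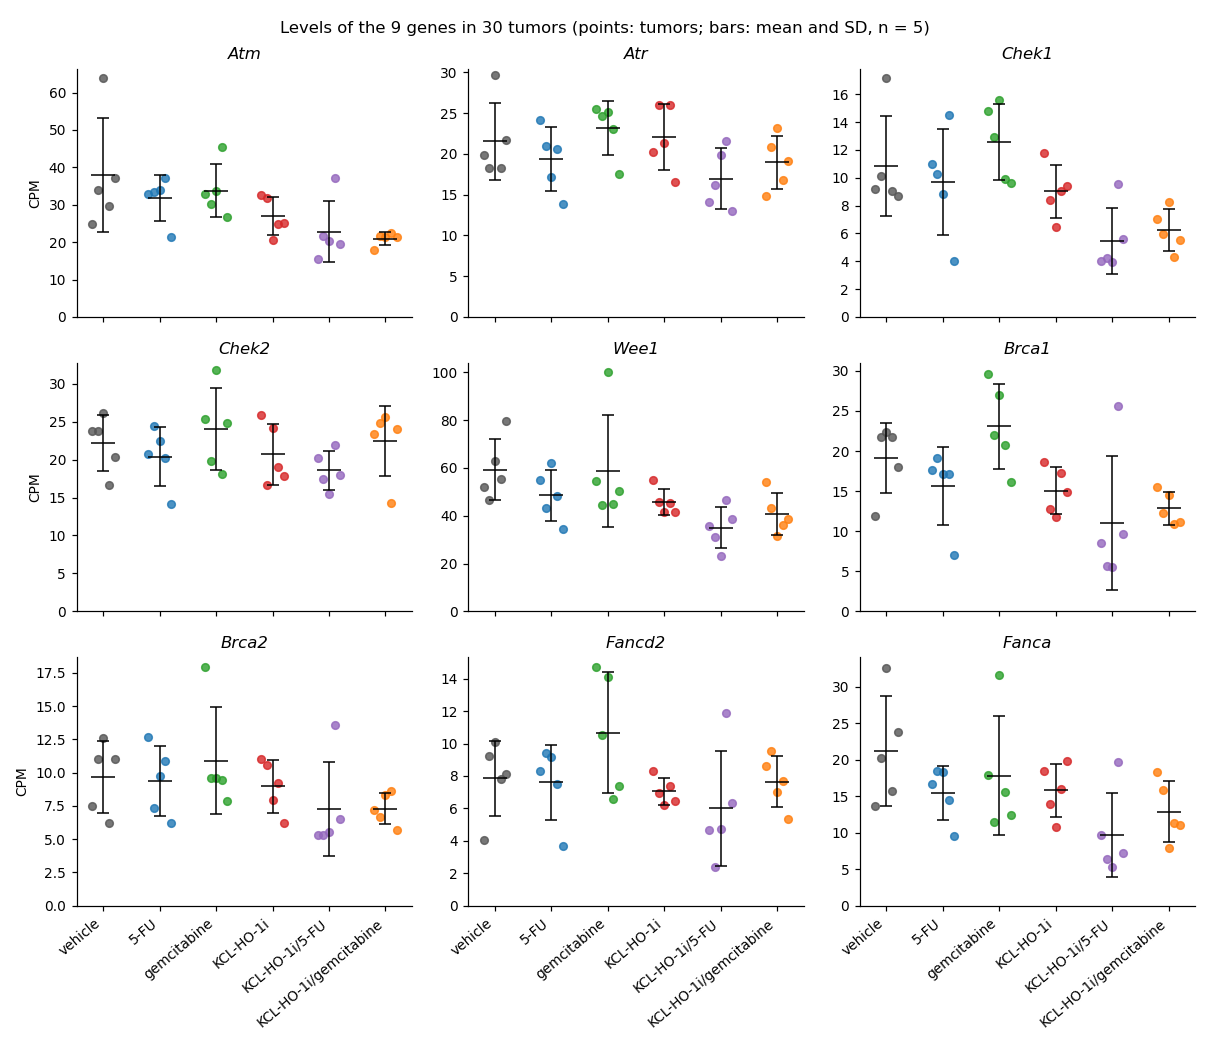
Level of each of the 9 genes, in CPM (y axis, from 0), in the 5 tumors of each of the 6 groups (x axis). Points are tumors, and black bars are the mean and SD; KCL-HO-1i/5-FU replicate 4 is the highest purple point in every panel and 5-FU replicate 5 the lowest blue one.

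The first question was whether tumors given KCL-HO-1i differed from those without it, over the 3 backgrounds of vehicle, 5-FU and gemcitabine (15 tumors against 15). All 9 genes had a lower fitted mean with KCL-HO-1i, with a median log2 difference of -0.46, against 0.00 over all tested genes, of which 50.2% were negative. With edgeR's quasi-likelihood test none of the 9 passed an adjusted p of 0.05, a threshold that 0.0586% of all tested genes passed. At an unadjusted p under 0.05, 6 of 9 were lower (Atm, Chek1, Wee1, Brca1, Fanca and Brca2), where 9.22% of all tested genes were. DESeq2, the tool of the study, called 4 of the 9 at an adjusted p under 0.05 (Atm, Chek1, Wee1 and Brca1) where it called 8.38% of all genes, and limma-voom called 3 (Atm, Chek1 and Brca1) where it called 1.92%.

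The label of each tumor also carries a code, 1 of 13, whose meaning is not stated. Only 3 codes held tumors both with and without KCL-HO-1i. Among them is the code shared by 5-FU replicate 5 and KCL-HO-1i/5-FU replicate 4, the pair that stood apart, so a fit with the code rests in part on that pair. With the code as a covariate, the KCL-HO-1i average was negative for 4 of 9 genes (Atm, Chek1, Wee1 and Brca2), none had an unadjusted p under 0.05, and the median log2 difference was 0.11. The SE of the 9 values then ran from 0.19 to 0.47 on the log2 scale. The code and KCL-HO-1i are therefore largely confounded, and what each adds cannot be told apart in most tumors.

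Atm, the apical kinase of the double-strand break response, had a lower mean with KCL-HO-1i on each of the 3 backgrounds. Its levels were 24.9, 33.9, 63.9, 29.8 and 37.2 CPM in vehicle, 32.9, 33.5, 34.0, 37.1 and 21.3 in 5-FU, and 33.0, 30.2, 33.8, 45.4 and 26.6 in gemcitabine. With the inhibitor they were 32.6, 31.9, 20.5, 24.9 and 25.2 CPM on its own, 15.5, 21.7, 20.4, 37.0 and 19.5 together with 5-FU, and 18.02, 21.5, 21.4, 22.4 and 21.5 together with gemcitabine. All 5 KCL-HO-1i/gemcitabine tumors were below all gemcitabine and all vehicle tumors, while the other pairs of groups overlapped. In 14 of 15 tumors with KCL-HO-1i the level was below the mean of the matching group without it. The average log2 difference was -0.55 (SE 0.13, a change of -31.8%, edgeR adjusted p = 0.0525), and over 39 alternative fits the adjusted p ran from 0.00497 to 0.936.

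Chek1, the effector kinase below ATR, showed the largest average difference of the 9. It was at 9.21, 10.1, 17.1, 9.07 and 8.70 CPM in vehicle, 10.96, 10.3, 8.85, 14.5 and 4.00 in 5-FU, and 14.8, 12.9, 15.6, 9.93 and 9.64 in gemcitabine. With the inhibitor it was at 11.8, 8.42, 6.496, 9.05 and 9.40 CPM on its own, 4.00, 4.23, 3.96, 9.55 and 5.64 together with 5-FU, and 7.04, 5.93, 8.26, 4.30 and 5.55 together with gemcitabine. The KCL-HO-1i and vehicle tumors overlapped, and it was the KCL-HO-1i/gemcitabine tumors that lay wholly below both vehicle and gemcitabine. The average log2 difference was -0.70 (SE 0.17, a change of -38.5%, edgeR adjusted p = 0.0525), with 13 of 15 tumors below the mean of their background. By background it was -0.26 (SE 0.29) on vehicle, -0.83 (SE 0.29) on 5-FU and -1.01 (SE 0.29) on gemcitabine. The difference between backgrounds was itself tested as an interaction, which gave -0.56 (SE 0.41, edgeR adjusted p = 0.701) with 5-FU and -0.75 (SE 0.41, edgeR adjusted p = 1.00) with gemcitabine.

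Wee1, which encodes the kinase that restrains entry into mitosis, had values below the mean of their background in 15 of 15 tumors with KCL-HO-1i. It was at 52.0, 46.4, 63.1, 55.5 and 79.5 CPM in vehicle, 55.0, 43.3, 62.0, 48.4 and 34.3 in 5-FU, and 54.5, 44.3, 100.1, 44.9 and 50.2 in gemcitabine. With the inhibitor it was at 54.8, 45.5, 41.7, 45.3 and 41.5 CPM on its own, 35.5, 31.3, 23.3, 46.5 and 38.6 together with 5-FU, and 54.1, 43.2, 31.4, 36.2 and 38.7 together with gemcitabine. Gemcitabine replicate 3 was far above the other tumors, and each pair of groups overlapped. The average log2 difference was -0.46 (SE 0.12, a change of -27.2%, edgeR adjusted p = 0.0532), and it was similar in size by background, at -0.37, -0.47 and -0.53 on vehicle, 5-FU and gemcitabine (SE 0.21 each).

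Atr and Chek2 differed least. Atr means were 21.6 ± 4.73 CPM in vehicle, 19.4 ± 3.94 in 5-FU, 23.2 ± 3.27 in gemcitabine, 22.0 ± 4.05 with the inhibitor alone, 16.96 ± 3.71 with inhibitor and 5-FU and 18.96 ± 3.29 with inhibitor and gemcitabine (SD, n = 5). Its average log2 difference with KCL-HO-1i was -0.15 (95% interval -0.36 to 0.06), and 9 of 15 tumors lay below the mean of their background. Chek2 means lay between 18.6 ± 2.53 CPM in KCL-HO-1i/5-FU and 24.01 ± 5.40 in gemcitabine (SD, n = 5), with 8 of 15 tumors below. The Chek2 difference was -0.11 (95% interval -0.32 to 0.10), so a decrease of the size seen for Chek1 lay outside the interval of either gene.

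Among the recombination genes, Brca1 showed the largest difference. Its levels were 11.8, 21.7, 22.3, 21.7 and 18 CPM in vehicle, 17.6, 19.1, 17.1, 17.2 and 6.97 in 5-FU, and 29.6, 22.0, 27.0, 20.7 and 16.2 in gemcitabine. With the inhibitor they were 18.7, 12.8, 11.8, 17.2 and 14.8 CPM on its own, 8.52, 5.64, 5.55, 25.6 and 9.63 together with 5-FU, and 15.5, 12.3, 14.5, 10.9 and 11.2 together with gemcitabine. KCL-HO-1i/5-FU replicate 4 was above every vehicle tumor and the other 4 of its group below every vehicle tumor, while KCL-HO-1i/gemcitabine lay wholly below gemcitabine. The average log2 difference was -0.57 (SE 0.18, a change of -32.4%, edgeR adjusted p = 0.0774), with 13 of 15 tumors below the mean of their background. Brca2 means ran from 7.26 ± 3.56 CPM in KCL-HO-1i/5-FU to 10.9 ± 4.02 in gemcitabine (SD, n = 5), and its average log2 difference was -0.35 (SE 0.16, edgeR adjusted p = 0.183).

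In the Fanconi anemia pathway the core complex gene Fanca differed more than its substrate gene Fancd2. Fanca was at 13.6, 20.2, 32.6, 15.7 and 23.8 CPM in vehicle, 16.6, 18.5, 18.3, 14.5 and 9.56 in 5-FU, and 17.96, 11.4, 31.7, 15.6 and 12.4 in gemcitabine. With the inhibitor it was at 18.4, 14.0, 10.8, 16.01 and 19.9 CPM on its own, 9.72, 6.38, 5.37, 19.7 and 7.28 together with 5-FU, and 18.4, 15.9, 7.85, 11.4 and 11.1 together with gemcitabine. Apart from replicate 4, the KCL-HO-1i/5-FU tumors lay below all vehicle tumors, and the other pairs of groups overlapped. The average log2 difference was -0.52 (SE 0.19, edgeR adjusted p = 0.103). Fancd2 means were 7.86 ± 2.32 CPM in vehicle, 7.61 ± 2.31 in 5-FU, 10.7 ± 3.73 in gemcitabine, 7.05 ± 0.842 with the inhibitor alone, 6.00 ± 3.56 with inhibitor and 5-FU and 7.65 ± 1.59 with inhibitor and gemcitabine (SD, n = 5). The Fancd2 difference was -0.33 (95% interval -0.71 to 0.06), and the difference between Fanca and Fancd2 was not tested.

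**Figure D2:**
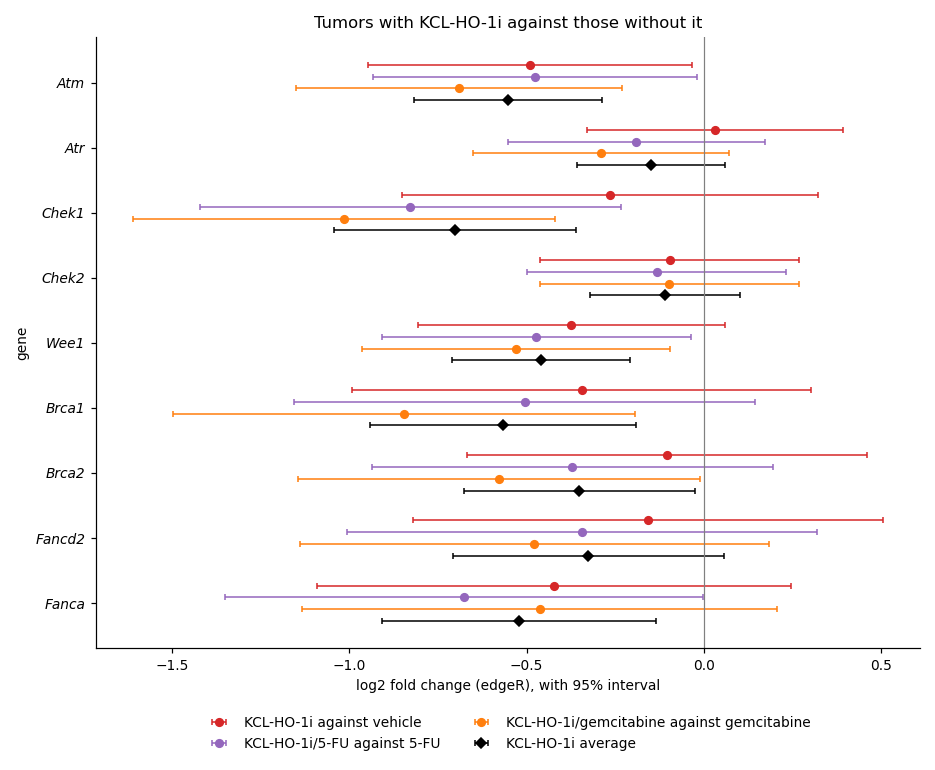
Log2 fold change of each gene (y axis) between tumors with and without KCL-HO-1i (x axis), on each background and averaged over the 3, with 95% intervals from edgeR. The black average intervals of Atm, Chek1, Wee1, Brca1, Brca2 and Fanca lie below 0, and those of Atr, Chek2 and Fancd2 cross it.

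Single tumors decided how many of the 9 passed the adjusted threshold. Without KCL-HO-1i/5-FU replicate 4, edgeR called 6 genes for the KCL-HO-1i average (Atm, Chek1, Wee1, Brca1, Brca2 and Fanca) where it called 6.07% of all genes. Without 5-FU replicate 5 it called 4 (4.16% of all genes), as it did without gemcitabine replicate 5 (8.17%). It called 3 without KCL-HO-1i replicate 1 (3.38%), KCL-HO-1i replicate 5 (3.45%), KCL-HO-1i/5-FU replicate 5 (3.72%) or KCL-HO-1i/gemcitabine replicate 4 (3.37%). Calls over the whole table were thus also more numerous in these fits than the 0.0586% with all tumors. Leaving out any other tumor gave 0 calls. At an unadjusted p under 0.05 the count of lower genes stayed between 5 and 7 for every tumor left out.

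The second question was how each treatment compared with vehicle. With 5-FU alone all 9 genes had lower means, from -0.04 (Brca2) to -0.45 (Fanca) on the log2 scale, and with gemcitabine alone 6 of 9 were higher, up to 0.44 (Fancd2). Without 5-FU replicate 5 the median for 5-FU went from -0.16 to -0.05, and Chek1 (0.05), Brca2 (0.08) and Fancd2 (0.13) were above vehicle. In neither comparison did edgeR call any of the 9 by the adjusted p, where 0% of all genes passed, or at an unadjusted p under 0.05, and DESeq2 also called none. With KCL-HO-1i alone Atm was lower by 0.49 (SE 0.22, edgeR adjusted p = 0.493), the 1 of 9 genes at an unadjusted p under 0.05 where 2.08% of all genes were lower. Atr had a log2 difference of 0.03 there. With the label code as a covariate 0 of 9 were lower with KCL-HO-1i alone at an unadjusted edgeR p under 0.05, against 0.527% of all genes. No gene of the table passed the adjusted p in edgeR against vehicle with KCL-HO-1i alone or with either combination, or with KCL-HO-1i added to either chemotherapy.

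KCL-HO-1i/5-FU had the lowest levels. Against vehicle 5 of 9 genes were lower at an unadjusted p under 0.05, against 7.84% of all genes, with log2 differences of -1.13 for Fanca (SE 0.33), -0.99 for Chek1 (SE 0.29), -0.80 for Brca1 (SE 0.32), -0.76 for Wee1 (SE 0.21) and -0.73 for Atm (SE 0.22). The smallest edgeR adjusted p was 0.119. None of the 9 had groups that did not overlap, against 2.07% of all genes. Without replicate 4 of that group 5 genes passed the adjusted threshold, with Brca1 at -1.39 (SE 0.26, edgeR adjusted p = 0.0305) and Fanca at -1.57 (SE 0.32, edgeR adjusted p = 0.0313), and 8 of 9 had an unadjusted p under 0.05, against 9.31% of all genes. With all tumors DESeq2 called 3 of the 9 (3% of all genes) and limma-voom 2 (1.24%). With the label code as a covariate 0 of 9 were lower at an unadjusted edgeR p under 0.05, against 0.834% of all genes. The median was then -0.27 in place of -0.73. No vehicle tumor shared a code with this group, so code and treatment cannot be told apart here.

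KCL-HO-1i/gemcitabine against vehicle gave 4 genes. Atm (-0.86, SE 0.22, edgeR adjusted p = 0.0822), Chek1 (-0.80, SE 0.29), Fanca (-0.71, SE 0.33) and Wee1 (-0.54, SE 0.21) were lower at an unadjusted p under 0.05, 4 of 9 against 8.04% of all genes. Atm and Chek1 had groups that did not overlap, 2 of 9 against 1.84%. Fancd2 (-0.04) and Chek2 (0.02) were close to vehicle. Atm alone was called by DESeq2, which called 6.49% of all genes here, and by limma-voom, which called 9.59%. With the label code as a covariate 0 of 9 were lower at an unadjusted edgeR p under 0.05, against 0.439% of all genes. The median was then -0.21 in place of -0.54.

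Beside the chemotherapy they contain, both combinations were lower for all 9 genes. For KCL-HO-1i/gemcitabine against gemcitabine, Chek1, Atm, Wee1, Brca1 and Brca2 were lower at an unadjusted p under 0.05, 5 of 9 against 6.51% of all genes, and Atm, Chek1 and Brca1 did not overlap between the groups, 3 of 9 against 0.959%. Brca1 differed by -0.85 (SE 0.32, edgeR adjusted p = 0.296) there, from 23.1 ± 5.30 to 12.9 ± 2.04 CPM (SD, n = 5). For KCL-HO-1i/5-FU against 5-FU, Chek1, Wee1, Atm and Fanca were lower, 4 of 9 against 5.26%. That count was 7 without KCL-HO-1i/5-FU replicate 4 (6.12% of all genes) and ran from 1 to 7 over the tumors left out. The share of all genes was not taken for each tumor left out. With the label code as a covariate 0 of 9 genes were lower at an unadjusted edgeR p under 0.05 in either comparison. The median was then 0.25 against gemcitabine (3.05% of all genes lower) and 0.16 against 5-FU (3.67%). No code was shared between gemcitabine and KCL-HO-1i/gemcitabine tumors, so code and treatment cannot be told apart there. These contrasts share tumors with those against vehicle and are not separate evidence.

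Averaged over vehicle and KCL-HO-1i, 5-FU gave lower means for all 9 genes, with Fanca (-0.58, SE 0.23), Chek1 (-0.44, SE 0.20), Wee1 (-0.34, SE 0.15) and Atr (-0.27, SE 0.12) at an unadjusted p under 0.05, 4 of 9 against 6.4% of all genes. Without 5-FU replicate 5 that count was 1 (4.55% of all genes), and without KCL-HO-1i/5-FU replicate 4 it was 6 (7.05%). It ran from 0 to 6 over the tumors left out, where the share of all genes was taken for these 2 fits only. For 5-FU added to KCL-HO-1i it was 3 of 9 (Chek1, Atr and Fanca) against 9.43%, and 8 without replicate 4 of the combination, against 8.92%. With only the compared groups fitted it was 1, and the counts for the 5-FU average and for KCL-HO-1i/5-FU against 5-FU were 2 each. The share of all genes was not taken in those fits. In the same order limma-voom gave 7, 5 and 7, against 9.22%, 7.41% and 7.42% of all genes. With the label code as a covariate edgeR gave 1 for 5-FU added to KCL-HO-1i (4.76% of all genes) and 0 for the 5-FU average (2.77%). The gemcitabine average and KCL-HO-1i/gemcitabine against KCL-HO-1i gave no gene at an unadjusted p under 0.05 in edgeR, and neither did the interaction with 5-FU or with gemcitabine. DESeq2 called none of the 9 by the adjusted p in these comparisons, and neither did limma-voom. At an unadjusted p under 0.05 limma-voom gave 2, 4, 2 and 2 lower genes, against 5.26%, 4.74%, 6.82% and 1.71% of all genes. Without KCL-HO-1i/5-FU replicate 4 edgeR gave 2 of 9 for the interaction with 5-FU, Chek1 (-0.85, SE 0.38) and Brca1 (-0.73, SE 0.34), against 4.49% of all genes, with a median of -0.58 in place of -0.19. Without 5-FU replicate 5 it gave Chek1 alone (-0.76, SE 0.37, 6.24% of all genes). For the interaction with gemcitabine and for gemcitabine added to KCL-HO-1i, leaving out either tumor gave 1 of 9. The shares of all genes were 0.831% and 1.72% without KCL-HO-1i/5-FU replicate 4, and 0.957% and 1.69% without 5-FU replicate 5. A test of any difference among the 6 groups gave 5 genes at an unadjusted p under 0.05 (Chek1, Atm, Wee1, Brca1 and Fanca), against 18.7% of all genes, and none by the adjusted p, against 0.651%. DESeq2 called 3 of the 9 in that test (7.01% of all genes) and limma-voom 2 (1.84%). Without KCL-HO-1i/5-FU replicate 4 edgeR called 3 by the adjusted p (Atm, Chek1 and Brca1, 0.889% of all genes), and without 5-FU replicate 5 it called Chek1 (1%).

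The rest of the pathway was taken from lists of partner genes. No partner passed the adjusted p in edgeR in any comparison, whereas DESeq2 called 12 of the 135 genes of the 7 lists for the KCL-HO-1i average, 8.89% against 8.38% of all genes, which is close to the background. For the KCL-HO-1i average, 9 of 22 checkpoint partners were lower at an unadjusted p under 0.05, against 9.22% of all genes (median log2 difference -0.21), with Rad50 at -0.22 (SE 0.07) and Mre11a at -0.21 (SE 0.06), both of the complex that senses breaks for ATM. Recombination partners were lower in 11 of 25 (median -0.18), led by the helicase gene Blm at -0.54 (SE 0.16) and Rpa2, which encodes a subunit of the single-strand binding protein, at -0.41 (SE 0.13). Fanconi partners were lower in 7 of 21 (median -0.10), with Fanci, the partner of FANCD2, at -0.48 (SE 0.16). End joining genes were lower in 3 of 11 (median -0.16), among them Xrcc6, which encodes Ku70, at -0.21 (SE 0.06) and Parp1 at -0.31 (SE 0.09). None in these 4 lists was higher at that level. Without KCL-HO-1i/5-FU replicate 4 the 4 counts were 12, 12, 7 and 4, against 12.1% of all genes, and without 5-FU replicate 5 they were 12, 12, 7 and 3, against 11.9%. The medians were closer to 0 than the -0.46 of the 9 genes, a difference that was not tested.

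Cell cycle genes were lower as well. S phase genes were lower in 13 of 18 (median -0.44), with Rrm1 of ribonucleotide reductase at -0.59 (SE 0.14) and the helicase subunit gene Mcm7 at -0.51 (SE 0.15), and proliferation genes in 9 of 18 (median -0.42), against 9.22% of all genes. Without either KCL-HO-1i/5-FU replicate 4 or 5-FU replicate 5 these counts were 15 and 17. The share of all genes was 12.1% without the first tumor and 11.9% without the second. For KCL-HO-1i/5-FU against vehicle 16 of 18 proliferation genes were lower (median -1.04), as were 9 of 22 checkpoint and 10 of 25 recombination partners, against 7.84% of all genes. Without replicate 4 of the combination these counts were 18, 13 and 14, against 9.31%. For KCL-HO-1i/gemcitabine against vehicle no proliferation gene and no S phase gene was lower at an unadjusted edgeR p under 0.05, with medians of -0.12 and -0.15, where 8.04% of all genes were, and 1 checkpoint partner, Trp53bp1, was (-0.35, SE 0.14). Against gemcitabine this combination was negative for 18 of 18 genes of both lists (median -0.56 each), where 49.9% of all genes were negative. In that comparison 1 proliferation and 7 S phase genes were lower at an unadjusted edgeR p under 0.05, against 6.51% of all genes. Gemcitabine alone against vehicle had 0 of 18 negative in both lists (medians 0.39 and 0.38), where 44.5% of all genes were negative.

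Targets of p53, which acts downstream of ATM and CHK2, had a median near 0 in the KCL-HO-1i average, but the backgrounds differed in sign. On vehicle the median was -0.25, and 3 of 20 were lower at an unadjusted edgeR p under 0.05, against 2.08% of all genes. On 5-FU it was 0.37 with 0 of 20 negative, against 46.7% of all genes. On gemcitabine it was 0.02 with 10 of 20 negative, against 49.9%. The interaction with 5-FU had a median of 0.47. In the KCL-HO-1i average 2 of 20 were higher at an unadjusted p under 0.05, Sesn1 (0.57, SE 0.16) and Phlda3 (0.51, SE 0.21), where 13.7% of all genes were, none was lower, and the median was 0.04. In the 5-FU average 7 of 20 were higher against 5.56% of all genes (median 0.30), with the cyclin-dependent kinase inhibitor gene Cdkn1a at 1.18 (SE 0.31). Without 5-FU replicate 5 that count was 3, which is not set against a share of all genes here. For 5-FU added to KCL-HO-1i 11 of 20 were higher against 7.47%, Cdkn1a by 2.05 (SE 0.45), while 9 of 22 checkpoint partners and 16 of 18 proliferation genes were lower against 9.43%. None of these passed the adjusted p in edgeR.

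**Figure D3:**
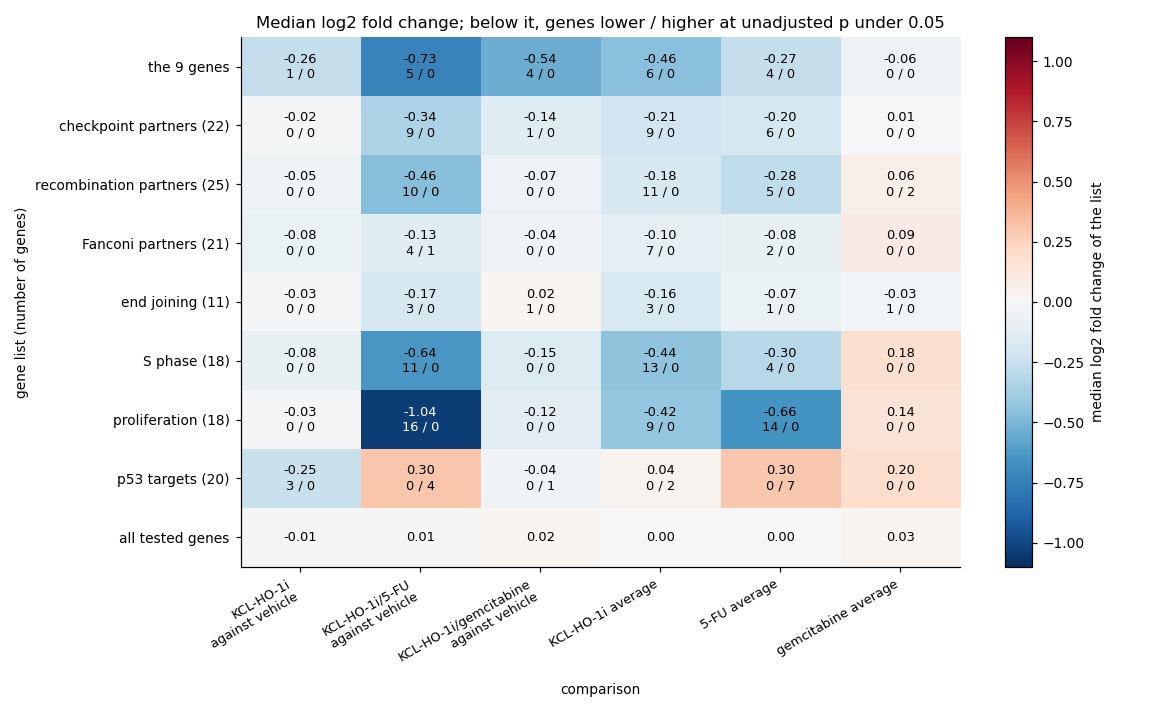
Median log2 fold change (color and upper number) of the 9 genes and of 7 gene lists (rows) in 6 comparisons (columns), with the numbers of genes lower / higher at an unadjusted edgeR p under 0.05 below it and all tested genes in the last row. KCL-HO-1i/gemcitabine against vehicle shows 4 of the 9 genes lower beside 0 of 18 proliferation genes, and KCL-HO-1i/5-FU against vehicle shows 5 beside 16. Comparisons of the combinations with chemotherapy alone are not shown.

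Each of the 9 genes was positively correlated with the proliferation score over the 30 tumors. Pearson's r was 0.86 for Fancd2 and Brca1, 0.80 for Fanca, 0.78 for Chek1, 0.76 for Wee1, 0.72 for Chek2, 0.63 for Brca2, 0.56 for Atr and 0.45 for Atm, and Spearman's rho ran from 0.49 (Atm) to 0.82 (Fancd2 and Fanca). In permutation tests the p for r was 1e-05, the smallest that 100000 permutations can give, for 6 genes, 0.00014 for Brca2, 0.00131 for Atr and 0.0122 for Atm, and after adjustment over 18 relations the largest was 0.0244. Without the 2 tumors farthest from the median score r ran from 0.43 (Atm) to 0.80 (Fanca). With group means subtracted it was 0.86 for Fancd2 and 0.82 for Brca1 but 0.37 for Atr and 0.36 for Atm, for which the adjusted permutation p was 0.0965 and 0.111. Over all 13663 tested genes the median r was -0.04, and 1.49% of them had an r at least that of Fancd2, 2.83% that of Chek1 and 13.6% that of Atm.

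With the proliferation score as a covariate, the KCL-HO-1i average was negative for 8 of 9 genes and 5 had an unadjusted p under 0.05 (Atm, Chek1, Wee1, Brca1 and Fanca), against 4.67% of all genes, with a median of -0.27. Atm was at -0.47 (SE 0.13) and Chek1 at -0.46 (SE 0.13), Fancd2 at -0.03 (SE 0.11) and Chek2 at 0.03 (SE 0.09). The combinations then differed in their counts. For KCL-HO-1i/5-FU against vehicle none of the 9 had an unadjusted edgeR p under 0.05 (5 before), while the share of all genes went from 7.84% to 3.06%. For KCL-HO-1i/gemcitabine against vehicle 5 did (4 before), and the share went from 8.04% to 8.4%, with Atm at -0.80 (SE 0.22), Chek1 at -0.70 (SE 0.21) and Fanca at -0.60 (SE 0.21). The score itself holds genes that were lower in KCL-HO-1i/5-FU, and whether the combinations differ in this was not tested.

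**Figure D4:**
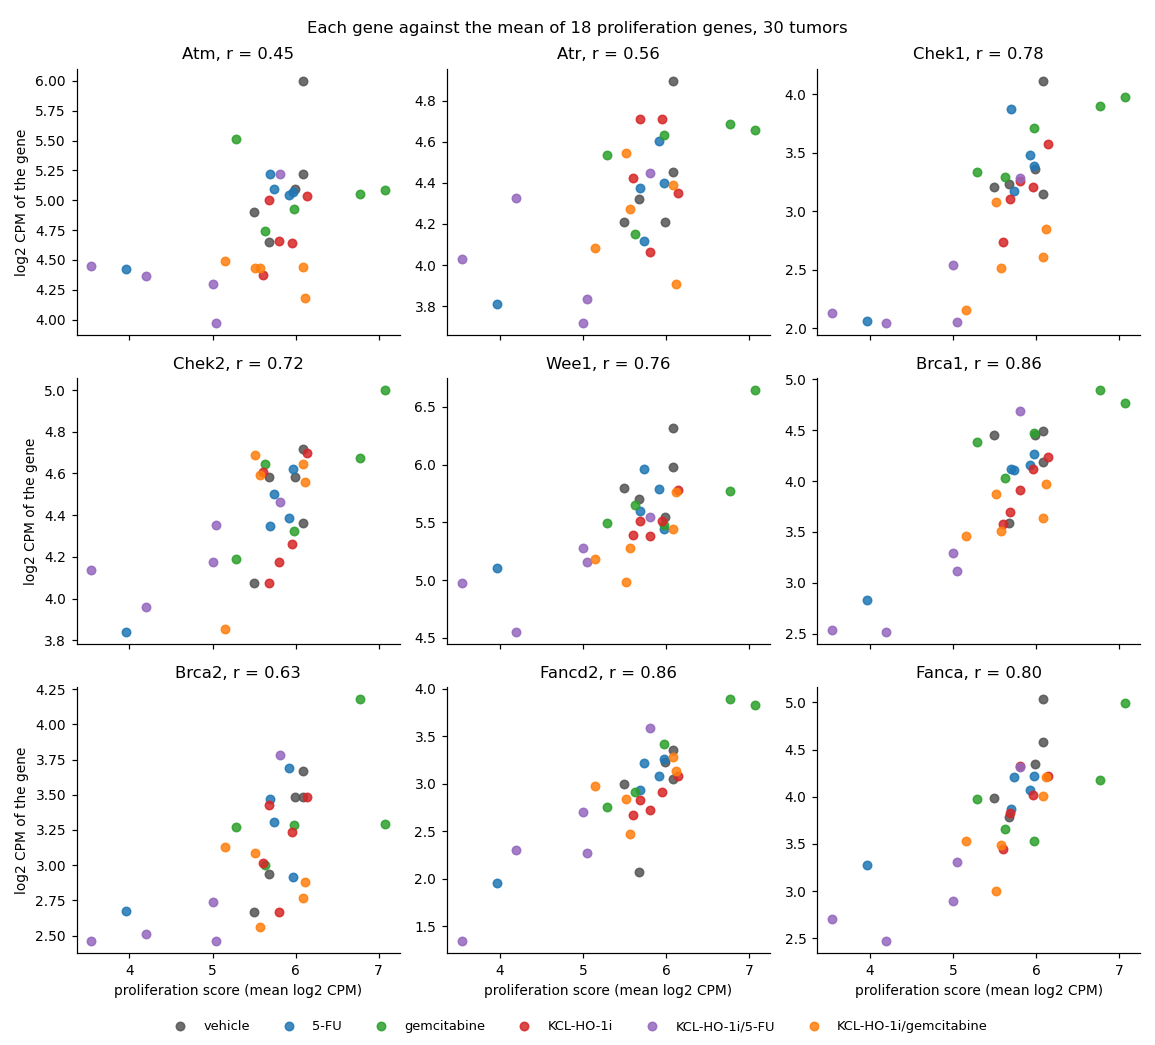
Log2 CPM of each gene (y axis) against the proliferation score, the mean log2 CPM of 18 mitotic genes (x axis), with 1 point per tumor colored by group. Brca1 and Fancd2 are higher in tumors with a higher score (r = 0.86), and Atm is more scattered (r = 0.45).

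Markers of other cell types also had different levels beside KCL-HO-1i. All 10 adipocyte, 10 skeletal muscle, 10 macrophage, 8 endothelial and 8 fibroblast genes had higher means (median log2 differences 2.28, 3.30, 0.79, 0.67 and 1.57), and 8 of 10 mammary epithelial genes lower ones (median -0.11). The summed level of the adipocyte list was 22.8 to 1689 CPM (median 61.5) without the inhibitor and 21.5 to 8263 CPM (median 319.9) with it, and no marker was at 0 in all tumors. For skeletal muscle it was 2.86 to 264 CPM (median 5.48) and 2.89 to 13943 CPM (median 61.0), for macrophages 101.0 to 637 CPM and 297 to 827 CPM, for endothelium 55.5 to 160.0 CPM and 54.8 to 516 CPM, and for fibroblasts 108 to 3237 CPM and 178 to 12087 CPM. Of the T cell list 6 of 8 genes were tested and 2 had higher means (median -0.06), summing to 1.68 to 20.5 CPM and 4.16 to 14.9 CPM. These sums were taken from log2 CPM, which adds a prior count to each gene. The lowest sums, as for skeletal muscle and T cells, are therefore in part prior and overstate the level. In bulk tumor RNA fewer tumor cells and less RNA of a gene per cell cannot be told apart.

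With the adipocyte score as a covariate the KCL-HO-1i average stayed negative for 9 of 9 genes (median -0.45), with Chek1 at -0.57 (SE 0.18), Wee1 at -0.45 (SE 0.14), Atm at -0.45 (SE 0.14) and Brca1 at -0.48 (SE 0.20), the 4 with an unadjusted p under 0.05, against 4.04% of all genes. Atm had the strongest relation with that score, a Pearson r of -0.40 (rho -0.44, permutation p 0.0296, adjusted over 18 relations 0.0533), r -0.38 without the 2 farthest tumors and -0.30 with group means subtracted. For the other 8 genes r lay between -0.32 (Brca2) and 0.01 (Atr), with adjusted permutation p-values of 0.142 and above. Against vehicle, the adipocyte covariate left 2 of 9 genes lower at an unadjusted edgeR p under 0.05 for KCL-HO-1i/gemcitabine (4 before). The share of all genes went from 8.04% to 5.51%. For KCL-HO-1i/5-FU 5 were lower as before (7.82% of all genes), and for KCL-HO-1i alone 0 were in place of 1 (0.783%). The part of the other cell types in the result was not tested.

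**Figure D5:**
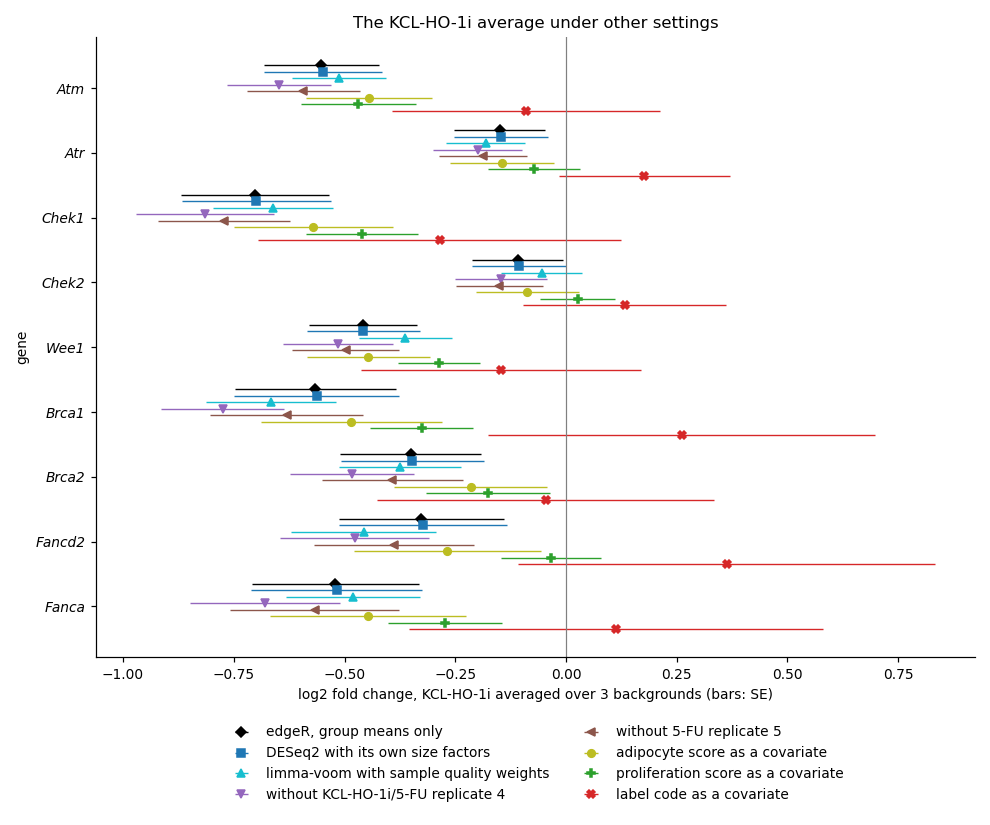
KCL-HO-1i average of each gene (y axis) as a log2 fold change with its SE (x axis) in the reported fit and 7 alternatives. The label code covariate (red crosses) moves 5 of 9 genes above 0 with the widest bars, and the proliferation covariate (green) moves Chek2 just above 0.

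For each of the 9 genes, the 3 genes whose log2 CPM followed it most closely over the 30 tumors were found by Pearson's r. Chek1 was most like Suz12 (r = 0.93), Parp1 (0.90) and Wdhd1 (0.90), and Brca1 most like Kntc1 (0.94), Pola1 (0.93) and Tedc1 (0.92). Fancd2 was most like Cenpf (0.90), Rad54l (0.90) and Aspm (0.90), and Wee1 most like Rrm1 (0.88), Wbp11 (0.88) and Smc3 (0.86). Those of Fanca were Cdk18 (0.87), Fen1 (0.86) and Wee1 itself (0.86), and those of Brca2 were Supt16 (0.83), Dnmt1 (0.83) and Nup205 (0.81). Chek2 was most like Actl6a, Tfdp1 and Ddx39 (0.80 each). Atm was instead most like Lars (0.89), Smarcc1 (0.89) and Ltn1 (0.88), and Atr least closely followed, by Mbd4 (0.77), Nvl (0.76) and Sdad1 (0.75). Within the set the 36 pairs had r from 0.26 (Atm and Chek2) to 0.89 (Chek1 and Brca1), with a median of 0.65. These are descriptions over tumors that share treatments and proliferation.

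The neighbors of each gene on its chromosome were also examined. For each gene up to 20 tested genes on either side were summarized as the median deviation from their own means in each tumor, which stayed between -0.40 and 0.23 on the log2 scale for all 9 genes. Around Brca1 on chromosome 11 it ran from -0.27 to 0.18 and its r with Brca1 over the 30 tumors was -0.23, while for Chek2 it was 0.59. In gemcitabine replicate 3, where Wee1 was 1.11 above its mean on the log2 scale, the neighbor median was 0.22 with 20 genes on either side and 0.48 with 10. The r of Wee1 with its neighbor median was 0.36 with 20 genes and 0.64 with 10. With up to 40 genes on either side the median around Brca2 reached 0.43 in 5-FU replicate 2, so the range depends on the window.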

How the data were processed

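RNA-seq was performed on 30 MMTV-PyMT tumors, 5 in each of 6 treatment groups taken from the sample labels. Per the submitters' processing notes, the authors checked reads with FastQC 0.11.9 and used STAR 2.7.9a, Salmon 1.9.0 and tximport with the mm10 build. The annotation release is not given in the sources used here. The authors deposited a table of gene-level expected counts. The study's methods call the values TPM, but 38.0% of them are not whole (tolerance 0.005) and column totals differ, as estimated counts do. Total counts ran from 10067577 to 13622264, which allows 3 reads to stand for 0.215 to 0.302 CPM. Such limits cover counting error only.

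Counts were rounded and genes kept by filterByExpr with a minimum count of 10, leaving 13663 of 21841 genes (3255 were at 0 in all tumors). edgeR 4.0.16 (R 4.3.3) was used with TMM normalization and robust quasi-likelihood tests on 6 group means over all 30 tumors. 14 contrasts and 1 test of any difference were run, with Benjamini-Hochberg adjustment over all tested genes and a threshold of 0.05. Log2 CPM used a prior count of 2. CPM printed for tumors are edgeR values without a prior, except the summed levels of marker lists. Those were taken from log2 CPM and so include the prior count of each gene.

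The 9 genes and all gene lists were chosen with earlier results of these data known. Named partner genes are up to 2 per list and direction with the smallest p in a contrast, and each of the 9 genes is given with the 3 tested genes of highest Pearson r. Markers of cell types are fixed lists. Correlations were tested with 100000 permutations. Alternatives were other size factors, DESeq2 1.42.0, limma-voom 3.58.1 with sample weights, other filters, a replicate block, the label code, proliferation and adipocyte scores as covariates, fits to the compared groups only, and leaving out each tumor. The test was also run on simulated data. Of 21841 symbols 21613 matched the GENCODE annotation of mm10. Lengths are those of the longest annotated coding transcript. Promoters are RefSeq windows of 300 bases on GRCm38.p6, matched by symbol. No pair among the 60 within groups agreed within sampling noise (lowest chi-square per degree of freedom 20.1), so each tumor counted as 1. Shares of mitochondrial counts ran from 1.44% to 9.69%.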

Additional observations from a re-analysis of the deposited data

Results flagged for a closer look

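For each of the 9 genes in each of the 6 groups, the highest or lowest tumor was set against the other 4 by Dixon's criterion on log2 CPM, which chance alone meets in about 1 in 20 groups. It was met in 11 of 54. In 5-FU replicate 5, Atm was at 21.3 CPM (other tumors of the group 32.9 to 37.1), Brca1 at 6.97 (17.1 to 19.1) and Fancd2 at 3.71 (7.49 to 9.41). KCL-HO-1i/5-FU replicate 4 had Brca2 at 13.6 CPM (5.34 to 6.498). In vehicle, Chek1 was at 17.1 CPM in replicate 3 (8.70 to 10.1) and Fancd2 at 4.04 CPM in replicate 1 (7.80 to 10.1). In gemcitabine, Wee1 was at 100.1 CPM in replicate 3 (44.3 to 54.5), Brca2 at 17.96 CPM in replicate 1 (7.85 to 9.61) and Atr at 17.6 CPM in replicate 5 (23.0 to 25.6). In KCL-HO-1i/gemcitabine, Atm was at 18.02 CPM in replicate 1 (21.4 to 22.4) and Chek2 at 14.3 CPM in replicate 4 (23.4 to 25.6).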

How the results depend on the processing

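The number of the 9 genes past the adjusted threshold depended on the tool. With all tumors edgeR called 0 in each comparison, whereas DESeq2 called 3 for KCL-HO-1i/5-FU against vehicle, 1 for KCL-HO-1i/gemcitabine against vehicle, 4 for the KCL-HO-1i average and 3 for any difference, and limma-voom called 2, 1, 3 and 2. Of the 135 genes in the 7 lists DESeq2 called 3 (2.22%), 1 (0.741%), 12 (8.89%) and 18 (13.3%) in the same order, against 3%, 6.49%, 8.38% and 7.01% of all genes. It called 1 for the 5-FU average (0.741%, against 0.184% of all genes) and 2 for KCL-HO-1i/5-FU against 5-FU (1.48%, against 0.324%). For 5-FU added to KCL-HO-1i it called 6 (4.44%, against 2.92%). In these comparisons edgeR called 0 of the list genes. Leaving out 1 tumor at a time gave 0 to 5 of the 9 genes for KCL-HO-1i/5-FU against vehicle, 0 to 6 for the KCL-HO-1i average and 0 to 3 for any difference, and 0 to 12, 0 to 24 and 0 to 5 list genes. Over all genes edgeR called 8 for the KCL-HO-1i average (3 to 1130 with 1 tumor left out) against 1139 with DESeq2 and 263 with limma-voom, and 89 for any difference against 953 and 251. For the combinations against vehicle it called 0, against 408 and 169 with 5-FU and 883 and 1310 with gemcitabine. The label code as a covariate turned the KCL-HO-1i average of Atr (0.18), Chek2 (0.13), Brca1 (0.26), Fancd2 (0.36) and Fanca (0.11), Atm for KCL-HO-1i alone (0.17) and Brca1 for KCL-HO-1i/gemcitabine against gemcitabine (0.44) above 0. The proliferation score turned Chek2 (0.026). The correlation of Atr with the adipocyte score, near 0, turned to -0.0143 with a prior count of 0.5, -0.13 without the 2 farthest tumors and -0.0179 with group means subtracted. That of Atm with the same score was -0.42 and past the threshold with a prior count of 0.5, and with group means subtracted those of Atm (0.36) and Atr (0.37) with the proliferation score missed it. The cause was not tested in any of these. Same-numbered replicates did not deviate together (mean r 0.00284 over 75 pairs, -0.583 to 0.480), so the numbers pair nothing. With the replicate block the KCL-HO-1i average had a median of -0.45 over the 9 genes with 0 called, and over all genes 12 were called for that average, 1 for any difference and 3 for KCL-HO-1i/5-FU against vehicle. Size factors and filters on low counts changed no call of the 9 genes. Fits to the compared groups only give no value for the KCL-HO-1i average and for any difference. The common biological coefficient of variation over all tested genes was 0.401, and those of the 9 genes ran from 20.4% (Atr) to 36.0% (Fanca). With 5 tumors per group, the SE of 0.10 to 0.19 for the KCL-HO-1i averages limits what small differences could be shown.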
